A study of Mus musculus with 8 samples.

Results

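Notch signaling was examined at the RNA level through 10 genes of the 53700 in the count table: the receptors Notch1, Notch2 and Notch3, the ligands Jag1, Jag2 and Dll1, and the target genes Hes1, Hey1, Heyl and Nrarp. The genes were chosen by name as members of the pathway, with earlier results of these data known. All of them were found in the table by their symbol. RNA was sequenced from WT and FIH-KO Lewis lung carcinoma (LLC) cells, a mouse tumor line grown in culture, after 16 hours in normoxia (21% O2) or hypoxia (1% O2). Each of the 4 groups had 2 libraries, 8 in all: WT normoxia, FIH-KO normoxia, WT hypoxia and FIH-KO hypoxia. The FIH-KO cells were made from LLC cells with Cas9 protein and a guide against exon 2 of Hif1an, the mouse gene for FIH, and were grown from diluted single cells. The effect of the deletion and other properties of a single-cell-derived line cannot be told apart in these libraries. The labels do not say whether the 2 libraries of a group came from separate cultures, so the p values measure the spread between these libraries, which may be technical.

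Notch receptors are single-pass membrane proteins that are activated by ligands on the neighboring cell. Ligand binding leads to cleavage by an ADAM protease and then by γ-secretase, and the released intracellular domain joins the DNA-binding protein RBPJ and a Mastermind coactivator to switch on targets such as the Hes and Hey genes and Nrarp. FIH is an asparagine hydroxylase that uses oxygen to modify HIF-α, and it also hydroxylates the ankyrin repeats of Notch intracellular domains, a change to the protein that RNA counts do not measure.

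Each library held 14519731 to 18177016 counted reads. Expression is given as CPM, the count scaled to a library of standard size after TMM normalization, or, where different genes are set side by side, as TPM, which also divides by exon length. The libraries of each group were further apart than sampling of reads alone allows (chi-square per degree of freedom, 6.15 for WT normoxia to 25.7 for FIH-KO hypoxia). Hif1an stood at 82.3 to 90.2 CPM in the WT libraries and at 34.8 to 51.0 CPM in the FIH-KO libraries, and the decrease passed the test at both oxygen levels. Among markers of cell identity, Krt8, Krt18 and Vim were abundant, Epcam and Cldn4 had no read in any library, and Cdh1 had at most 1. The 4 mesenchymal markers summed to 4400 to 5990 CPM in WT and 8250 to 11000 CPM in FIH-KO libraries, and the 6 epithelial ones, Krt8 and Krt18 among them, to 226 to 352 CPM and 334 to 538 CPM; their part in the genotype differences was not tested. In reads, Vim, Fn1 and Krt8 were higher in every FIH-KO library than in any WT library. Krt18, Krt19, Cdh2 and S100a4 overlapped between the genotypes. The 6 fibroblast markers summed to 9.31 to 31.0 CPM and the 6 immune ones to 2.70 to 7.25 CPM. Of 6 endothelial markers, 4 had 3 reads or fewer in every library, and of 6 immune markers, 5 did. In all, 7 of the 10 Notch genes passed the filter on low counts and were tested. Hey1, Heyl and Nrarp did not pass it.

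Notch2 was by far the most abundant of the 10 genes in every group. Among the receptors it made up 89.4% to 92.8% of the Notch1, Notch2 and Notch3 transcripts, in TPM, in the 4 WT libraries and 73.7% to 83.7% in the 4 FIH-KO libraries. Notch1 made up 6.13% to 10.3% in WT and 14.3% to 23.5% in FIH-KO libraries. Notch3 made up 0.216% to 1.07% in WT and 1.97% to 2.76% in FIH-KO libraries. For each receptor the WT and FIH-KO libraries did not overlap in this share, although the summed level of the receptors did, at 75.4 to 89.1 TPM in WT and 73.5 to 102 TPM in FIH-KO libraries.

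**Figure D1:**
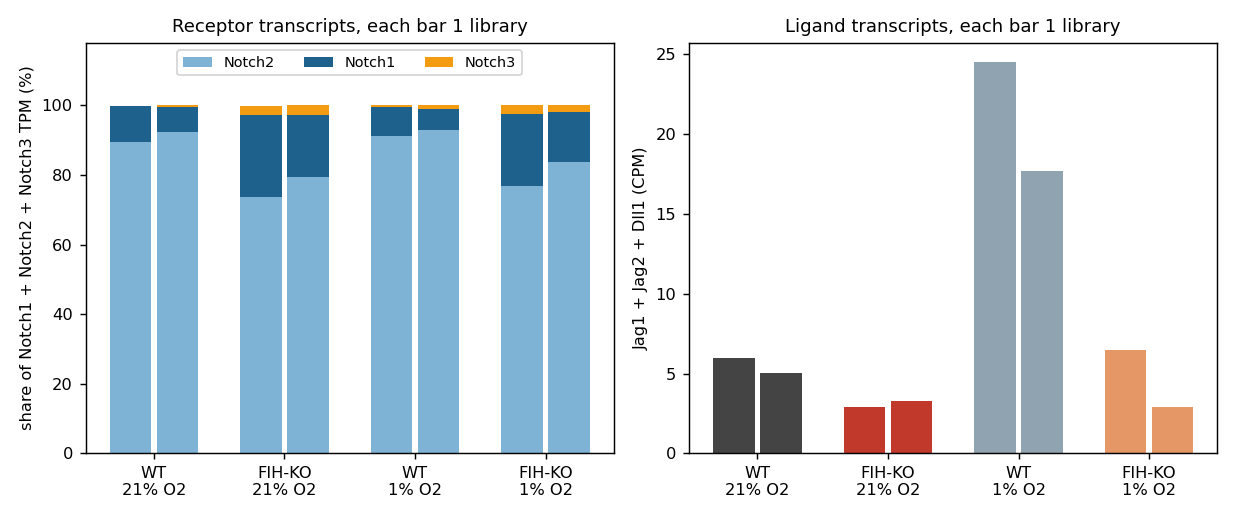
Receptor and ligand transcripts in each of the 8 libraries. The left panel shows the share (%) of the summed TPM of Notch1, Notch2 and Notch3 held by each receptor, and the right panel the summed CPM of Jag1, Jag2 and Dll1; every bar is 1 library. The Notch1 share was above 14% in every FIH-KO library and below 11% in every WT library, and the ligand sum was 17.7 and 24.5 CPM in WT hypoxia against 2.92 to 6.50 CPM in the other 6 libraries.

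The order of the other genes by TPM differed between groups. In WT normoxia Notch2 (76.4 TPM) was followed by Notch1 (7.27), Hes1 (5.91) and Dll1 (2.38), each apart from the next in both libraries. Nrarp (1.31), Jag2 (1.19) and Jag1 (1.02) came next and overlapped with their neighbors, and Notch3 was last among the genes with reads (0.259). In FIH-KO normoxia Notch3 (2.68 TPM) stood above all 3 ligands, after Notch2 (74.5), Notch1 (20.1) and Hes1 (4.46). In WT hypoxia Notch2 (71.2 TPM) was followed by Jag2 (6.97), Dll1 (6.44), Notch1 (5.54) and Hes1 (5.35), and neighbors among these 4 overlapped. In FIH-KO hypoxia Notch2 (62.5 TPM), Notch1 (13.5) and Hes1 (4.83) again led, and Notch3 (1.75), Jag2 (1.59) and Dll1 (1.55) could not be ordered.

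Receptors were compared between FIH-KO and WT cells first. In FIH-KO cells Notch1 and Notch3 rose in both oxygen conditions, and Notch2 did not pass the test in either. Among the 7 tested Notch genes, 3 passed the test in normoxia, 2 of them higher and 1 lower, and 5 passed it in hypoxia, 2 higher and 3 lower. Over all 13933 tested genes the share that passed was 28.2% in normoxia and 28.0% in hypoxia. The median log2 fold change of the 7 Notch genes was -0.43 in normoxia and -0.15 in hypoxia, beside 0.00 and -0.03 over all tested genes. DESeq2's Wald test called 2 Notch genes in normoxia and 5 in hypoxia. The libraries of the genotypes did not overlap for 6 of the 7 genes in normoxia, beside 69.4% of all tested genes, and for 5 of the 7 in hypoxia, beside 61.7%. Both FIH-KO comparisons were made within one fit, and each has its own WT libraries.

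Notch1 (ENSMUSG00000026923.16, chromosome 2 of GRCm39, 26347915 to 26406675, minus strand) encodes the receptor best known from T cell development and leukemia. It had 24.4 and 19.0 CPM in the WT normoxia libraries and 65.1 and 52.9 CPM in the FIH-KO normoxia libraries. In hypoxia the WT libraries had 19.1 and 13.0 CPM and the FIH-KO libraries 46.2 and 34.4 CPM. Every FIH-KO library was above every WT library, whatever the oxygen. The increase was 2.73-fold in normoxia (log2 fold change 1.45, standard error 0.21, 95% interval 1.00 to 1.89, adjusted p = 0.00042, edgeR) and 2.50-fold in hypoxia (log2 fold change 1.32, standard error 0.21, 95% interval 0.86 to 1.78, adjusted p = 0.00093). Both calls were present in all 15 fits, which include other normalizations, filters and tools and each library left out.

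Notch3 (ENSMUSG00000038146.9, chromosome 17, 32339794 to 32385893, minus strand), a receptor best known in vascular smooth muscle, was scarce in WT cells. WT normoxia libraries held 5 and 11 Notch3 reads (0.321 and 0.652 CPM), and FIH-KO normoxia libraries 81 and 92 reads (4.82 and 5.15 CPM). In hypoxia there were 0.841 and 1.43 CPM in WT and 3.62 and 2.99 CPM in FIH-KO libraries. The genotypes did not overlap in either condition, and they were closer together in hypoxia. The increase was 10.0-fold in normoxia (log2 fold change 3.32, standard error 0.45, 95% interval 2.35 to 4.29, adjusted p = 0.00014, edgeR) and 2.94-fold in hypoxia (log2 fold change 1.56, standard error 0.38, 95% interval 0.74 to 2.37, adjusted p = 0.0084). Without replicate 1 of WT hypoxia the hypoxic call was lost (log2 fold change 1.24, adjusted p = 0.081, edgeR). Mural cell markers, genes of the pericytes and smooth muscle in which Notch3 is usually found, summed to 15.1 and 48.2 CPM over 6 genes in FIH-KO normoxia, 4.06 and 6.18 in FIH-KO hypoxia, 3.02 and 5.21 in WT normoxia and 1.30 and 1.35 in WT hypoxia. Of these 6 markers, 2 had 3 reads or fewer in every library and Acta2 ranged from 4 to 824 reads; their part in the Notch3 result was not tested.

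Notch2 (ENSMUSG00000027878.12, chromosome 3, 97920800 to 98057677, plus strand) had 167 and 193 CPM in WT and 162 and 185 CPM in FIH-KO normoxia libraries. In hypoxia it had 170 and 156 CPM in WT and 136 and 159 CPM in FIH-KO libraries. The genotypes overlapped in both conditions. The log2 fold change was -0.05 in normoxia (95% interval -0.32 to 0.22, adjusted p = 0.78, edgeR) and -0.15 in hypoxia (95% interval -0.42 to 0.13, adjusted p = 0.42), and with at least 2178 reads in every library these intervals were the narrowest of the 7 genes.

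**Figure D2:**
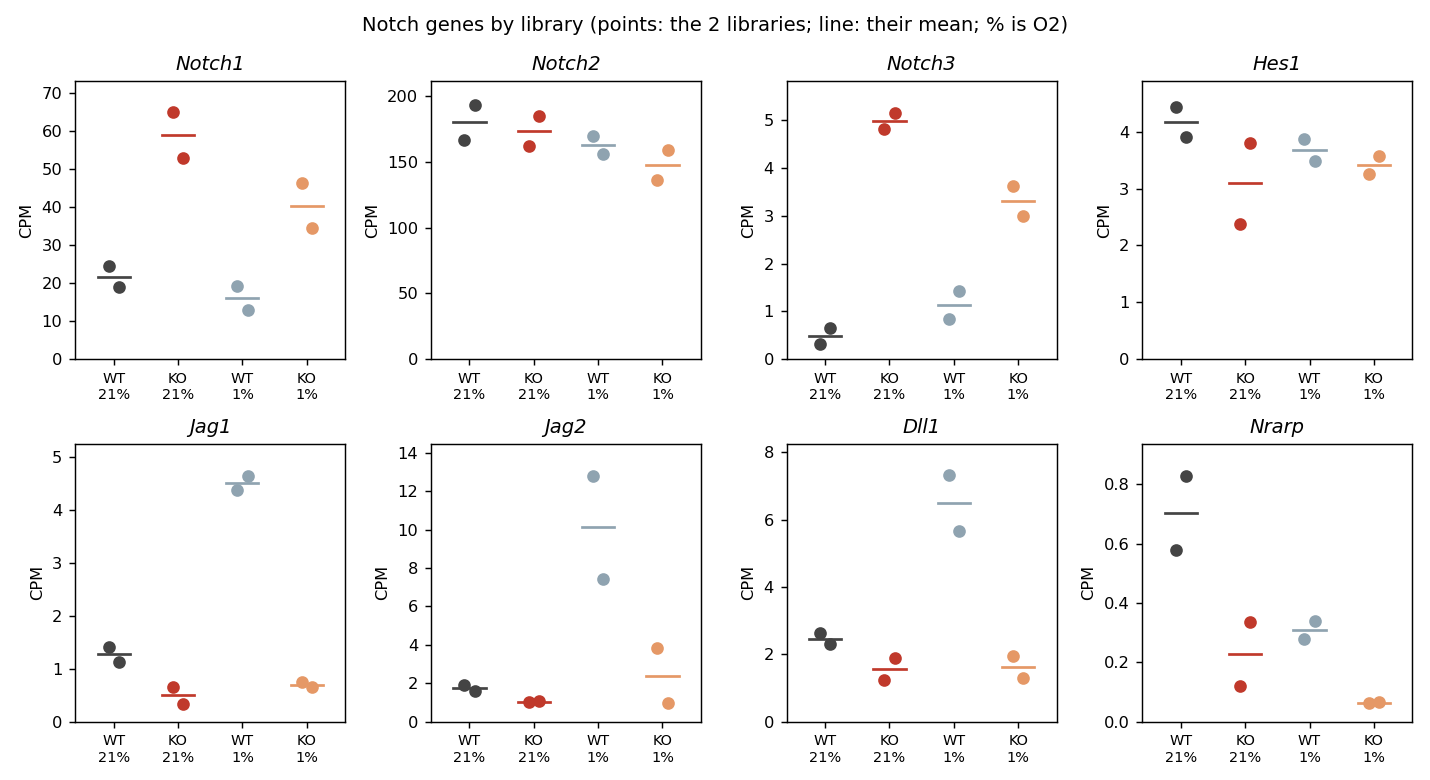
CPM of 8 Notch genes in each library, with 2 points per group and a line at their mean, each gene on its own linear axis from 0; Hey1 and Heyl, with 4 reads and 0 reads in all, are not drawn. Notch1 and Notch3 were higher in both FIH-KO groups, and Jag1, Jag2 and Dll1 were highest in WT hypoxia.

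The members lie in different surroundings on their chromosomes. On chromosome 2 the median log2 fold change over 1112 other tested genes was 0.23 in normoxia, and the 10 tested genes nearest to Notch1 had a median of 0.47, with 5 of them called higher and 0 lower. The Notch1 value of 1.45 was above that median. Chromosome 3, which holds Notch2, had a median of -0.36 over 682 tested genes, and the 10 nearest to Notch2 a median of -0.60, with 7 called lower and 0 higher. Near Notch3 the median of the 10 nearest genes was 0.07, with 2 called higher and 1 lower. Jag1, which fell, had 10 neighbors with a median of 0.45, of which 3 were higher and 0 lower. The part of these regional differences in the members' values was not tested.

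Across the 8 libraries, the tested genes with a pattern most like that of each receptor were found by Pearson's correlation of log2 CPM, given as a description because the 8 libraries share 4 groups. They were Lrrc28 (r = 0.993), Krt8 (0.992) and Khk (0.989) for Notch1. For Notch2 they were Sik3 (0.969), Gm4900 (0.957) and Uhrf1 (0.941). For Notch3 they were 6330403L08Rik (0.987), Shisa4 (0.982) and Podnl1 (0.98).

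The ligands moved the other way in FIH-KO cells. In hypoxia Jag1, Jag2 and Dll1 all fell, 3 of 3, beside 13.9% of all tested genes called lower in that comparison. In normoxia Jag1 fell and the values of Jag2 and Dll1 did not pass the test. These genes encode transmembrane ligands of the Jagged (Jag1, Jag2) and Delta-like (Dll1) families. Summed over the 3 genes, ligand transcripts were 5.98 and 5.04 CPM in WT normoxia, 2.92 and 3.30 in FIH-KO normoxia, 24.5 and 17.7 in WT hypoxia and 6.50 and 2.93 in FIH-KO hypoxia. The WT hypoxia libraries thus stood apart from the other 6.

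Jag1 (ENSMUSG00000027276.8, chromosome 2, 136923373 to 136958693, minus strand) had 1.41 and 1.13 CPM in WT and 0.655 and 0.336 CPM in FIH-KO normoxia libraries, the latter from 11 and 6 reads. In hypoxia it had 4.37 and 4.64 CPM in WT and 0.749 and 0.651 CPM in FIH-KO libraries. The genotypes did not overlap in either condition. The decrease was 6.37-fold in hypoxia (log2 fold change -2.67, standard error 0.39, 95% interval -3.53 to -1.81, adjusted p = 0.00041, edgeR) and 2.55-fold in normoxia (log2 fold change -1.35, standard error 0.45, 95% interval -2.34 to -0.36, adjusted p = 0.037). The hypoxic call was present in all 14 fits in which Jag1 was tested. The normoxic call was lost with DESeq2's Wald test (adjusted p = 0.11), without either WT normoxia library (adjusted p = 0.19 and 0.082, edgeR), without either WT hypoxia library (0.053 and 0.057) and without replicate 2 of FIH-KO normoxia (0.20).

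Dll1 (ENSMUSG00000014773.14, chromosome 17, 15587276 to 15597134, minus strand) had 2.63 and 2.31 CPM in WT and 1.25 and 1.90 CPM in FIH-KO normoxia libraries. In hypoxia the values were 7.34 and 5.67 CPM in WT and 1.94 and 1.30 CPM in FIH-KO libraries. The gap between the genotypes was wide in hypoxia and narrow in normoxia. In hypoxia the decrease was 4.01-fold (log2 fold change -2.00, standard error 0.33, 95% interval -2.72 to -1.29, adjusted p = 0.00098, edgeR), and in normoxia the log2 fold change was -0.64 (95% interval -1.39 to 0.11, adjusted p = 0.19).

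Jag2 (ENSMUSG00000002799.7, chromosome 12, 112871421 to 112893437, minus strand) differed widely between the libraries of a group in hypoxia. It had 1.93 and 1.60 CPM in WT and 1.01 and 1.06 CPM in FIH-KO normoxia libraries. In hypoxia it had 12.8 and 7.44 CPM in WT and 3.81 and 0.976 CPM in FIH-KO libraries. The genotypes did not overlap, but the FIH-KO hypoxia libraries lay on both sides of the WT normoxia libraries. The decrease in hypoxia was 4.21-fold (log2 fold change -2.07, standard error 0.45, 95% interval -3.06 to -1.09, adjusted p = 0.0053, edgeR). Leaving out replicate 1 of FIH-KO hypoxia gave -3.33 on the log2 scale and leaving out replicate 2 gave -1.41, and the call was lost without replicate 1 of WT hypoxia (-1.59, adjusted p = 0.071, edgeR). In normoxia the log2 fold change was -0.76 (95% interval -2.00 to 0.49, adjusted p = 0.35).

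**Figure D3:**
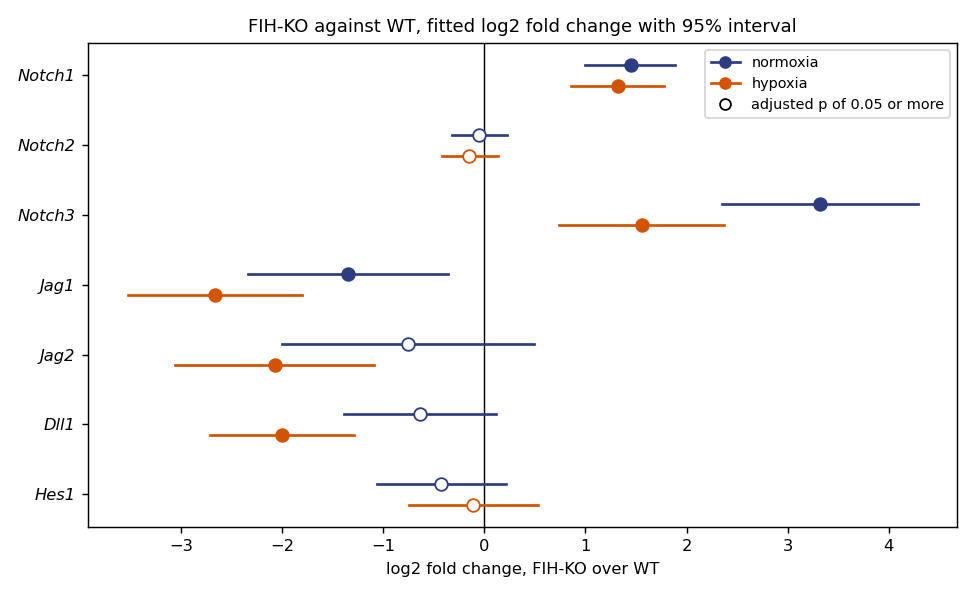
Fitted log2 fold change of FIH-KO over WT for the 7 tested Notch genes in normoxia and in hypoxia, with 95% intervals; filled points passed an adjusted p of 0.05 (edgeR) and open points did not. Notch1 and Notch3 lie to the right of 0 in both conditions, and in hypoxia Jag1, Dll1 and Jag2 lie between -2.67 and -2.00.

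Hypoxia was then compared with normoxia within each genotype. In WT cells the 3 ligands rose and no other Notch gene passed the test, so that 3 of the 7 tested genes were called, all higher, beside 32.4% of all tested genes called and 16.9% called higher. In FIH-KO cells edgeR called 0 of the 7, beside 16.8% of all tested genes called and 8.84% called higher. Of these 7, 2 had an unadjusted p under 0.05, and DESeq2 also called 0. The oxygen conditions did not overlap for 5 of the 7 genes in WT cells, beside 70.8% of all tested genes, and for 3 of the 7 in FIH-KO cells, beside 55.2%. The median log2 fold change of the 7 genes was 1.18 in WT and 0.04 in FIH-KO cells, beside 0.00 and -0.03 over all tested genes. The WT normoxia and WT hypoxia libraries are the same ones as in the genotype comparisons, so the rise of the ligands in WT hypoxia and their lower level in FIH-KO hypoxia share the WT hypoxia libraries and are not independent.

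In WT cells Jag2 rose 5.75-fold in hypoxia (log2 fold change 2.52, standard error 0.47, 95% interval 1.49 to 3.55, adjusted p = 0.0018, edgeR). Jag1 rose 3.54-fold (log2 fold change 1.82, standard error 0.35, 95% interval 1.07 to 2.58, adjusted p = 0.0020). Dll1 rose 2.64-fold (log2 fold change 1.40, standard error 0.31, 95% interval 0.73 to 2.07, adjusted p = 0.0049). For each of the 3, both hypoxia libraries were above both normoxia libraries. The Dll1 call was lost without replicate 1 of WT hypoxia (1.16, adjusted p = 0.056, edgeR) and without replicate 2 of WT normoxia (1.27, adjusted p = 0.065). In the same WT hypoxia libraries the endothelial marker Cdh5 had 35 and 18 reads, against 5 or fewer in the other 6 libraries, and the 6 endothelial markers summed to 1.77 and 2.47 CPM against 0.238 to 0.500 CPM elsewhere; Pecam1 had 5 and 8 reads in WT hypoxia against 3 or fewer elsewhere, Emcn had no read in any library, Kdr, Tek and Tie1 had at most 3, and the part of these transcripts in the ligand result was not tested.

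In FIH-KO cells the ligands gave smaller values. Jag1 had a log2 fold change of 0.50 (95% interval -0.56 to 1.57, adjusted p = 0.52, edgeR), and Dll1 one of 0.04 (95% interval -0.76 to 0.83, adjusted p = 0.96). The Jag2 value was 1.21 (95% interval 0.00 to 2.42, adjusted p = 0.16), and it depended on the library: without replicate 1 of FIH-KO hypoxia it was -0.06 (adjusted p = 0.96), and without replicate 2 it was 1.86 and was called (adjusted p = 0.0080).

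In the fit of all 8 libraries the receptors did not pass the test in either genotype. Notch1 had a log2 fold change of -0.42 in WT (95% interval -0.89 to 0.05, adjusted p = 0.16, edgeR) and -0.55 in FIH-KO cells (95% interval -0.99 to -0.11, adjusted p = 0.084), where without the filter on low counts it was called (adjusted p = 0.0091). For Notch2 the values were -0.14 (adjusted p = 0.42, edgeR) and -0.23 (adjusted p = 0.23). Notch3 had opposite signs, 1.18 in WT (95% interval 0.11 to 2.24, adjusted p = 0.077, edgeR) and -0.59 in FIH-KO cells (95% interval -1.28 to 0.10, adjusted p = 0.23), and in each genotype the 2 oxygen conditions did not overlap.

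**Figure D4:**
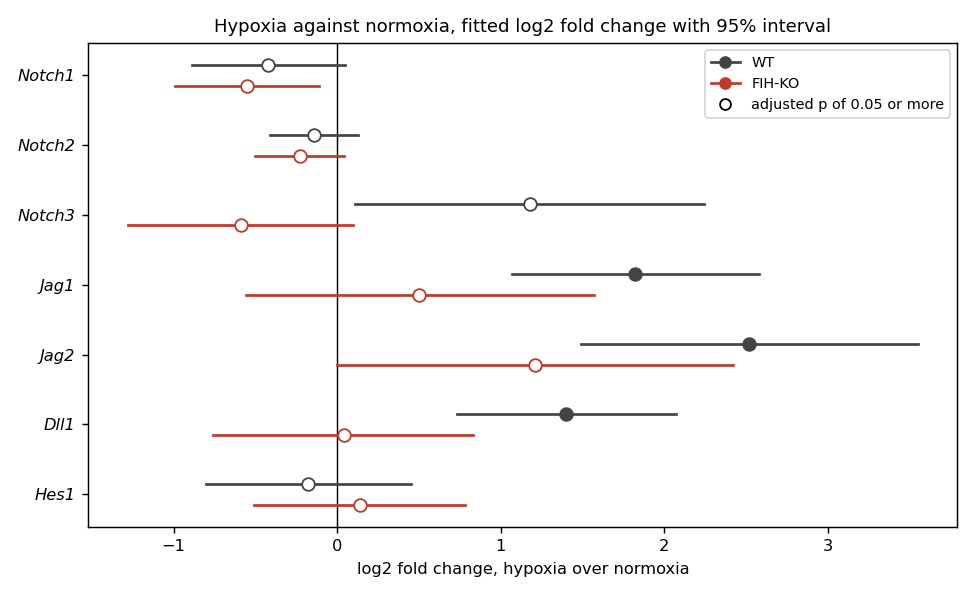
Fitted log2 fold change of hypoxia over normoxia for the 7 tested Notch genes in WT and FIH-KO cells, with 95% intervals; filled points passed an adjusted p of 0.05 (edgeR) and open points did not. The filled points are Jag1, Jag2 and Dll1 in WT cells, at 1.82, 2.52 and 1.40.

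Whether the effect of FIH-KO differed between the oxygen conditions was tested as an interaction. By edgeR 0 of the 7 Notch genes and 0 of the 13933 tested genes (0.0%) passed the adjusted threshold, although 3 Notch genes and 925 of all tested genes had an unadjusted p under 0.05. DESeq2 called 0 of the Notch genes and 37 of all genes. The 3 Notch genes were Notch3 (difference in log2 fold change -1.77, 95% interval -3.03 to -0.50, unadjusted p = 0.0090, adjusted p = 0.56 in edgeR), Dll1 (-1.36, 95% interval -2.40 to -0.32, unadjusted p = 0.014, adjusted p = 0.60) and Jag1 (-1.32, 95% interval -2.63 to -0.01, unadjusted p = 0.049, adjusted p = 0.75). For Jag2 the difference was of similar size with a wider error (-1.32, 95% interval -2.90 to 0.27, adjusted p = 0.80, edgeR). A smaller response of the ligands to hypoxia in FIH-KO cells is therefore not shown at the adjusted threshold.

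The target genes were low throughout. Hes1 (ENSMUSG00000022528.9, chromosome 16, 29882134 to 29886643, plus strand), a repressor of the basic helix-loop-helix family and a widely used readout of Notch activity, had 4.43 and 3.91 CPM in WT and 2.38 and 3.81 CPM in FIH-KO normoxia libraries. In hypoxia it had 3.87 and 3.48 CPM in WT and 3.25 and 3.58 CPM in FIH-KO libraries. It passed the test in no comparison. The log2 fold change of FIH-KO over WT was -0.43 in normoxia (95% interval -1.06 to 0.21, adjusted p = 0.30, edgeR) and -0.11 in hypoxia (95% interval -0.75 to 0.53, adjusted p = 0.82). Any change within these intervals remained compatible with the data. Hypoxia over normoxia gave -0.18 in WT (adjusted p = 0.67, edgeR) and 0.14 in FIH-KO cells (adjusted p = 0.80).

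Nrarp (ENSMUSG00000078202.4, chromosome 2, 25070770 to 25073351, plus strand), which encodes a feedback inhibitor of Notch intracellular domains, had 9 and 14 reads in the WT normoxia libraries and 2 and 6 in the FIH-KO normoxia libraries. In hypoxia there were 5 and 5 reads in WT and 1 and 1 in FIH-KO libraries. In both conditions the FIH-KO libraries were below the WT libraries. Summed over 2 libraries, FIH-KO normoxia had 0.326 of the WT normoxia level (8 against 23 reads, 95% exact interval 0.126 to 0.754), and FIH-KO hypoxia 0.207 of the WT hypoxia level (2 against 10 reads, 95% exact interval 0.0221 to 0.972), where the intervals cover counting error only. In an edgeR fit without the filter on low counts the adjusted p was 0.16 in normoxia and 0.22 in hypoxia.

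Hey1 and Heyl, repressors related to the Hes family, were close to or below detection. Hey1 (ENSMUSG00000040289.9, chromosome 3, 8726956 to 8732385, minus strand) had no read in the 4 normoxia libraries, 2 and 1 reads in WT hypoxia and 0 and 1 in FIH-KO hypoxia. Heyl (ENSMUSG00000032744.5, chromosome 4, 123127349 to 123143682, plus strand) had no read in any library. A count of 0 allows up to 3 reads, which is 0.168 to 0.205 CPM in these libraries.

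The sequence before annotated starts of the genes was searched for short motifs, because HIF binds DNA at hypoxia response elements and Notch acts through RBPJ. RefSeq promoter windows of build GRCm38.p6 were given for 7 of the 10 genes, with 2 starts for Dll1, and the 250 bases before each start were placed on GRCm39 by exact match. Hes1, Hey1 and Heyl had no window, so Nrarp was the only target gene that was searched. These starts are those of RefSeq, and by the GENCODE coordinates given above the windows of Notch1, Jag1, Jag2 and the first Dll1 start lie inside the genes. The core of a hypoxia response element was taken as ACGTG or GCGTG and the RBPJ core as TGGGAA, each on both strands. Longer RBPJ sites can share bases with the hypoxia response element core. A hypoxia response element core was present before 7 of the 8 starts, in all but Notch1, beside 38.6% of 32851 promoter windows of the same length, and the RBPJ core was present in 0 of the 8, beside 21.6%. Nrarp held the palindrome CACGTG, which was counted once on each strand. The windows held 56.0% (second Dll1 start) to 87.2% (Jag2) G and C bases, and the shares over all windows were not matched for this. An excess of either core in the Notch genes can therefore not be read from these numbers. A match in such short windows is a description of the letters and not a binding site.

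The windows of the ligands that rose in WT hypoxia and of Notch3, the receptor with the largest difference between genotypes, are shown because their levels changed most. All are on the strand of the gene, with the cores in capitals, where CACGT and CACGC are the cores read from the opposite strand. The windows of Jag1, Jag2 and the first start of Dll1 lie in annotated exons, and only the bases around the cores are given for Jag1 and Jag2; for Notch3 the bases outside exons are given.
Jag1, chr2:136958674-136958690, minus strand: ccGCGTGttgagaagag
Jag1, chr2:136958597-136958621, minus strand: gccaggcgggCACGCgtcattgtgt
Jag2, chr12:112893269-112893293, minus strand: gcctcccctgCACGCccgccgcgca
Dll1, second start, chr17:15597195-15597444, minus strand: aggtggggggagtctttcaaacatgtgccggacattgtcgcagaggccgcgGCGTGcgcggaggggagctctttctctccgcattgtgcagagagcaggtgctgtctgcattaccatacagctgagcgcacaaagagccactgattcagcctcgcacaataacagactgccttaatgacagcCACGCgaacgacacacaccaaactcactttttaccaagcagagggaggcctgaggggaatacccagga
Notch3, chr17:32385894-32386114, minus strand: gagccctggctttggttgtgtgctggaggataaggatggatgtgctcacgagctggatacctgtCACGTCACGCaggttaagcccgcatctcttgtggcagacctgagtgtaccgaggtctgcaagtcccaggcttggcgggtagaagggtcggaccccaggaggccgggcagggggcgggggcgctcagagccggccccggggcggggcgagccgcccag
In the Notch3 window an ACGTG core, 186 to 182 bases before the RefSeq start, lies next to a GCGTG core at 181 to 177 bases. The cores of Jag1 begin 248 and 171 bases before its RefSeq start, that of Jag2 168 bases, and those at the second Dll1 start 199 and 68 bases.

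The rest of the pathway was followed through 46 further genes, of which 37 passed the filter on low counts and 5 had no read in any library. In FIH-KO against WT cells 9 of the 37 passed the test in normoxia, 8 higher and 1 lower, and 10 in hypoxia, 7 higher and 3 lower, near the background of 28.2% and 28.0% given above. In hypoxia against normoxia 12 passed in WT cells, 9 higher and 3 lower, and 7 in FIH-KO cells, 6 higher and 1 lower, near the background of 32.4% and 16.8%. In the interaction 0 passed by edgeR or DESeq2, with 4 at an unadjusted p under 0.05. The median log2 fold change of the 37 genes lay between -0.13 and 0.19 in the 5 comparisons. These counts moved with single libraries, from 1 to 13 in normoxia, 2 to 12 in hypoxia, 5 to 18 in WT and 1 to 9 in FIH-KO cells when each library was left out in turn.

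By role, the ubiquitin ligases and endocytic regulators gave 4 of 11 tested genes higher in FIH-KO normoxia and 5 of 11 higher in WT hypoxia, beside 15.2% and 16.9% of all tested genes called higher. Of 3 tested receptors and ligands outside the 10 genes, 2 were higher in FIH-KO normoxia. Of 9 nuclear cofactors, 1 was higher in FIH-KO normoxia, 1 lower in FIH-KO hypoxia and 4 passed the test in WT hypoxia, 3 higher and 1 lower. Of 9 proteases, 2 passed in FIH-KO normoxia, 1 in each direction, 3 were higher in FIH-KO hypoxia and 2 lower in WT hypoxia. Of 3 tested sugar transferases, 2 were higher in FIH-KO hypoxia. The ubiquitin ligases and endocytic regulators gave 1 higher and 2 lower in FIH-KO hypoxia. Of all tested genes, 14.1% were called higher and 13.9% lower in FIH-KO hypoxia. The shares called lower were 13.0% in FIH-KO normoxia and 15.5% in WT hypoxia. The tested genes of the other Hes and Hey family members, 2 of 5, passed the test in no comparison.

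Of these genes, 3 passed the test as higher in FIH-KO cells in both oxygen conditions, Neurl1b only narrowly in hypoxia. The share of all tested genes that did so was not counted, so an excess cannot be read from this number. Dner, which encodes a Notch-binding transmembrane protein related to the Delta ligands, had 0.386 and 0.592 CPM in WT and 2.62 and 3.25 CPM in FIH-KO normoxia, and 1.12 and 1.30 CPM in WT and 4.0 and 3.32 CPM in FIH-KO hypoxia. It rose 5.89-fold in normoxia (log2 fold change 2.56, standard error 0.42, adjusted p = 0.00061, edgeR) and 3.03-fold in hypoxia (1.60, standard error 0.34, adjusted p = 0.0044). Unlike the ligands among the 10 genes, Dner was thus higher in FIH-KO cells. Its WT normoxia values came from 6 and 10 reads. Like those ligands, Dner rose in WT hypoxia (2.42-fold, log2 fold change 1.28, adjusted p = 0.040, edgeR). That call was lost with DESeq2's Wald test (adjusted p = 0.10). It was also lost without any single library of WT normoxia, WT hypoxia or FIH-KO normoxia. The log2 fold change ranged from 0.97 to 1.59 with each library left out.

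Furin, the protease that cuts Notch receptors on their way to the cell surface, had 109 and 111 CPM in WT and 145 and 147 CPM in FIH-KO normoxia, a 1.33-fold rise (log2 fold change 0.41, standard error 0.10, adjusted p = 0.012, edgeR), and rose 1.32-fold in hypoxia (log2 fold change 0.40, adjusted p = 0.014). Without any 1 of the 4 normoxia libraries the normoxic Furin call was lost (adjusted p = 0.053 to 0.13), and without replicate 2 of WT hypoxia the hypoxic one (adjusted p = 0.12). Neurl1b, a ubiquitin ligase for Notch ligands, had 1.48 and 1.13 CPM in WT and 6.07 and 7.28 CPM in FIH-KO normoxia (log2 fold change 2.36, standard error 0.58, adjusted p = 0.0089, edgeR). In hypoxia its FIH-KO libraries stood far apart, at 2.81 and 12.7 CPM against 2.47 and 3.07 CPM in WT, so that the genotypes overlapped, and its value of 1.49 (adjusted p = 0.049) became 0.03 without replicate 2 of FIH-KO hypoxia. The hypoxic call of Neurl1b was lost in 7 of the 8 fits that left out 1 library (adjusted p = 0.058 to 0.96, edgeR) and in the fit of the 4 compared libraries (0.099). The normoxic call of Neurl1b was lost without either WT normoxia library (adjusted p = 0.053 and 0.077).

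In both genotypes 6 genes passed the test for hypoxia against normoxia. Here too the share of all tested genes that did so was not counted. Mib1 and Mib2, ubiquitin ligases that act on Notch ligands for their endocytosis, were among the 6. Mib2 had 15.4 and 24.2 CPM in WT normoxia and 62.9 and 76.7 CPM in WT hypoxia (log2 fold change 1.81, standard error 0.23, adjusted p = 0.00018, edgeR), and 39.7 and 36.8 CPM in FIH-KO normoxia and 80.9 and 50.8 CPM in FIH-KO hypoxia (0.78, standard error 0.22, adjusted p = 0.032). Mib1 rose by 0.50 on the log2 scale in WT (adjusted p = 0.0053, edgeR) and 0.40 in FIH-KO cells (adjusted p = 0.030).

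The coactivator Maml1 rose by 0.70 on the log2 scale in WT (adjusted p = 0.0020, edgeR) and 0.45 in FIH-KO cells (adjusted p = 0.037), whereas its relative Maml3 fell by 0.58 in WT (adjusted p = 0.014, edgeR) and by 0.82 in FIH-KO cells (adjusted p = 0.0042). Kdm5a, a histone demethylase that acts as a corepressor with RBPJ, rose by 0.51 (adjusted p = 0.0037, edgeR) and 0.38 (adjusted p = 0.031). Dtx3, of the Deltex family of ubiquitin ligases, rose by 0.54 (adjusted p = 0.0072, edgeR) and 0.47 (adjusted p = 0.025). In FIH-KO cells the hypoxia calls of Maml1, Kdm5a, Dtx3, Mib1 and Mib2 were each lost when a single library was left out. In WT cells those of Kdm5a, Dtx3, Mib1 and Maml3 were too, while those of Maml1 and Mib2 were not.

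**Figure D5:**
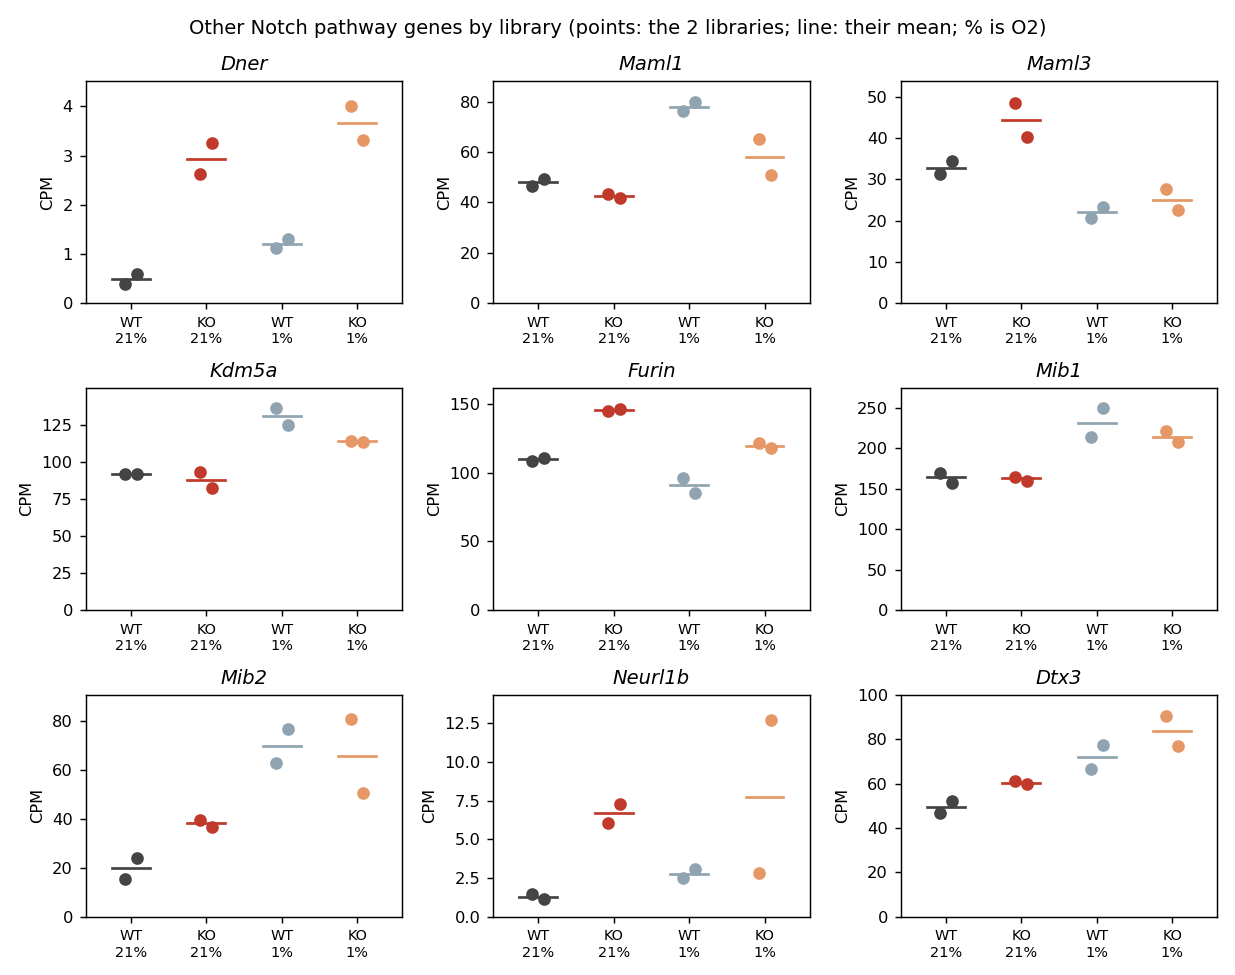
CPM in each library of the 9 other Notch pathway genes named by the rule, with 2 points per group and a line at their mean, each gene on its own linear axis from 0. Dner and Furin were higher in FIH-KO cells in both conditions and Neurl1b in normoxia, with overlapping genotypes in hypoxia; Maml1, Kdm5a, Mib1, Mib2 and Dtx3 were higher and Maml3 lower in hypoxia.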

How the data were processed

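RNA was extracted from WT and FIH-KO LLC cells in normoxia or hypoxia, and stranded mRNA libraries were sequenced paired-end. The authors converted the reads with bcl2fastq, aligned them with STAR to GRCm39 and obtained gene counts with HTSeq; the submitters' notes also name GRCm38 and DESeq2. The deposited values are raw counts, whole numbers without normalization. Annotation release, strand setting and handling of multi-mapped reads are not given in the sources used here, so reads of overlapping or antisense genes may be included. Groups and replicate numbers were taken from the sample titles. All 8 library columns were used.

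The 10 genes, the list of 46 further pathway genes and the marker lists were chosen with earlier results of these data known. Testing used edgeR 4.0.16 (R 4.3.3). Its filterByExpr function kept 13933 genes given the groups, with TMM factors of 0.983 to 1.02 and one quasi-likelihood fit in which every group had its mean. For each of 5 comparisons, Benjamini-Hochberg adjustment covered every tested gene, and the threshold on the adjusted p was 0.05. The common biological coefficient of variation was 11.7%. Standard errors and 95% intervals came from the quasi-likelihood fit. The main edgeR fit and DESeq2 were run on simulated counts, for FIH-KO against WT in normoxia only. The other settings and comparisons were not run on simulated counts. TPM used the exon length of each gene in GENCODE M39 for GRCm39, in which 97.97% of identifiers were found.

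All 10 genes were named. A further pathway gene was named if it passed the test in both FIH-KO comparisons, in both hypoxia comparisons or in the interaction. Alternatives were DESeq2 1.42.0 (Wald test), RLE size factors, testing every gene with a read, testing genes with at least 10 counts in each library, fitting the 4 compared libraries alone, a replicate block, and omission of each library in turn. Promoter windows came from RefSeq (GRCm38.p6). Figures were drawn with matplotlib 3.10.9. Other assays and human cells of the study were not analysed here.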

Additional observations from a re-analysis of the deposited data

How the results depend on the processing

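With 2 libraries per group and 14 reads or fewer of Jag1 in each FIH-KO library, of Notch3 in the WT normoxia libraries and of Nrarp in all, depth and replication limit the low genes most. Requiring at least 10 counts in every library dropped Jag1 and Notch3 from the test, which left 1 called Notch gene in normoxia and 3 in hypoxia for FIH-KO against WT. For hypoxia against normoxia in FIH-KO cells, 2 Notch genes were called with no filter beyond 1 read (Notch1 and Jag2), and 1 of the other pathway genes, Mib2, passed the interaction there (adjusted p = 0.0017, edgeR); the cause was not tested. When the 4 compared libraries were fitted alone, the calls among other pathway genes were 14 in normoxia, 5 in hypoxia, 20 in WT and 2 in FIH-KO cells. With the 5 nearest genes in place of 10, the neighbors' median had the sign of the member for 1 of 3 called Notch genes in normoxia, against 2 with 10 or 20.

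The sample titles do not say whether the replicate numbers pair the samples. Over all tested genes the correlation of same-numbered libraries' deviations was weak, between -0.0104 and 0.193 over the 6 pairs of groups. For Notch1, replicate 1 was higher than replicate 2 in every group. With the number as a replicate block, 1 Notch gene was called for hypoxia in FIH-KO cells (Notch1, -0.56, adjusted p = 0.012, edgeR) and 4 in WT cells, where Notch1 was added (-0.44, adjusted p = 0.032). The other counts of Notch genes were as in the main comparisons.

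With each library left out in turn, the called Notch genes numbered 2 to 3 in normoxia, 3 to 5 in hypoxia, 2 to 3 in WT, 0 to 1 in FIH-KO cells and 0 in the interaction; the fall to 3 in hypoxia came without replicate 1 of WT hypoxia. For the other pathway genes the counts were 1 to 13, 2 to 12, 5 to 18, 1 to 9 and 0. Some log2 fold changes that were not called with all libraries changed sign. Notch1 ranged from -0.37 to 0.24 in the interaction. Notch2 ranged from -0.19 to 0.03 in normoxia, from -0.26 to 0.00 in hypoxia and from -0.20 to 0.08 in the interaction. For hypoxia in FIH-KO cells Jag2 ranged from -0.06 to 1.86, called at its upper end, Dll1 from -0.25 to 0.40 and Hes1 from -0.14 to 0.54, and Hes1 in FIH-KO hypoxia against WT from -0.18 to 0.00. Among the other pathway genes, Neurl1b ranged from -1.25 to 0.95 for hypoxia in FIH-KO cells and was called at both ends. Mib2 ranged from -0.42 to 0.22 and Mib1 from -0.19 to 0.00 for FIH-KO in hypoxia. In the interaction Dtx3 ranged from -0.13 to 0.07, Furin from -0.09 to 0.14, Kdm5a from -0.19 to 0.02 and Mib1 from -0.15 to 0.01. Mib1 ranged from -0.09 to 0.02 in normoxia, and was 0.01 with no filter. Furin in the interaction was 0.00 with DESeq2, 0.01 with no filter and 0.02 with at least 10 counts. Single WT libraries ended the hypoxia calls in WT cells of Kdm5a (0.41 to 0.56), Dtx3 (0.42 to 0.61), Mib1 (0.38 to 0.57) and Maml3 (-0.69 to -0.53). Under the settings that kept all libraries of a comparison, 188 of 193 values of single Notch genes kept their direction and their side of the threshold. With a library left out, 253 values of single Notch genes kept both and 17 changed direction. The rest crossed the threshold.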
